A study of Loxodonta africana with 12 samples.

Results

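NFKB1, NFKB2, REL, RELA and RELB, which encode the 5 subunits of the transcription factor NF-kB, were followed in African elephant (Loxodonta africana) blood cells together with the feedback inhibitor TNFAIP3, the inhibitor of apoptosis BIRC3 and the downstream genes PTGS2 and VCAM1. These genes were selected by symbol from a list of 10, of which 9 matched a row among the 16406 genes of the deposited tables. NFKBIA, which encodes IkB-alpha, matched none and was not analysed here. RNA sequencing libraries came from cells irradiated at 2 Gy and from untreated cells, each at 24 h and at 5 h, and every one of these 4 groups held 3 libraries. The question behind the design is how elephant cells respond to DNA damage. Sex, age and number of the animals, the way the cells were isolated and the medium they were kept in are not stated in the labels. Replicates are numbered 1 to 3 with no word on whether they were separate animals or cultures, so a p-value covers the spread between the 3 libraries of a group, and that spread may be technical.

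The raw counts summed to between 18022475 and 23805619 per library in irradiated cells at 24 h and to between 22924260 and 37356501 in untreated cells at 24 h. At 5 h they summed to between 31129422 and 38138163 in irradiated cells and to between 31059389 and 35964159 in untreated cells. The 9 genes were deeply covered, with 640 counts at the least in any library and 107766 at the most. Levels are given as CPM, the usual scaling of a gene's counts to the size of its library, adjusted with TMM factors over all 12 libraries. Those factors lay between 1.09 and 1.29 at 24 h and between 0.849 and 0.887 at 5 h, so comparisons between the times rest more on the scaling than those between treatments. At least 4 marker genes of each of B cells, T cells, NK cells, monocytes, neutrophils, dendritic cells, platelets and erythroid cells had counts. Of those with a row, 0 stood at 0 in a whole group. The same held for the 13 endothelial and stromal markers with a row, so this does not tell which cell types were present. In such bulk RNA, fewer cells of a type and less RNA per cell cannot be told apart.

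NF-kB dimers rest in the cytoplasm, held by IkB proteins or by the unprocessed precursors that NFKB1 and NFKB2 encode. The IkB kinase complex marks the IkB proteins for destruction after receptor signals, and after DNA breaks by way of the kinase ATM and the adaptor NEMO. The freed dimers raise transcription of inflammatory, adhesion and survival genes and of several of their own subunit genes. They also raise transcription of NFKBIA and TNFAIP3, which limits the response in time. In white blood cells the RELA and NFKB1 products form the common canonical dimer, REL is prominent in lymphocytes, and RELB pairs with the NFKB2 product in the alternative pathway.

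Per kilobase of annotated exon length, the inhibitors stood above the subunits and the subunits mostly above the effector genes. BIRC3, a ubiquitin ligase that restrains cell death and the alternative pathway, had the highest level in all 4 groups, with 979 ± 186 CPM per kilobase in irradiated cells and 887 ± 202 in untreated cells at 24 h, and 1745 ± 93.7 in irradiated cells and 1773 ± 131 in untreated cells at 5 h (SD, n = 3 each). TNFAIP3, the ubiquitin-editing enzyme A20 that shuts off IkB kinase signalling, came next in all 4 groups. The libraries of these genes did not overlap with each other or with those of the gene below them in any group. NFKB2 came next and then NFKB1 at 24 h, with overlap between them in untreated cells, while NFKB1 stood above NFKB2 at 5 h. RELB followed and then RELA, in every group, and RELB overlapped with NFKB1 in irradiated cells at 24 h. REL, PTGS2 and VCAM1 were the lowest: at 24 h PTGS2 and REL overlapped in irradiated cells, and RELA, REL, VCAM1 and PTGS2 each overlapped with its neighbour in untreated cells, while at 5 h the order REL, PTGS2, VCAM1 held without overlap between neighbours in both groups. The order was the same in unscaled CPM and in the authors' deposited FPKM values.

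**Figure D1:**
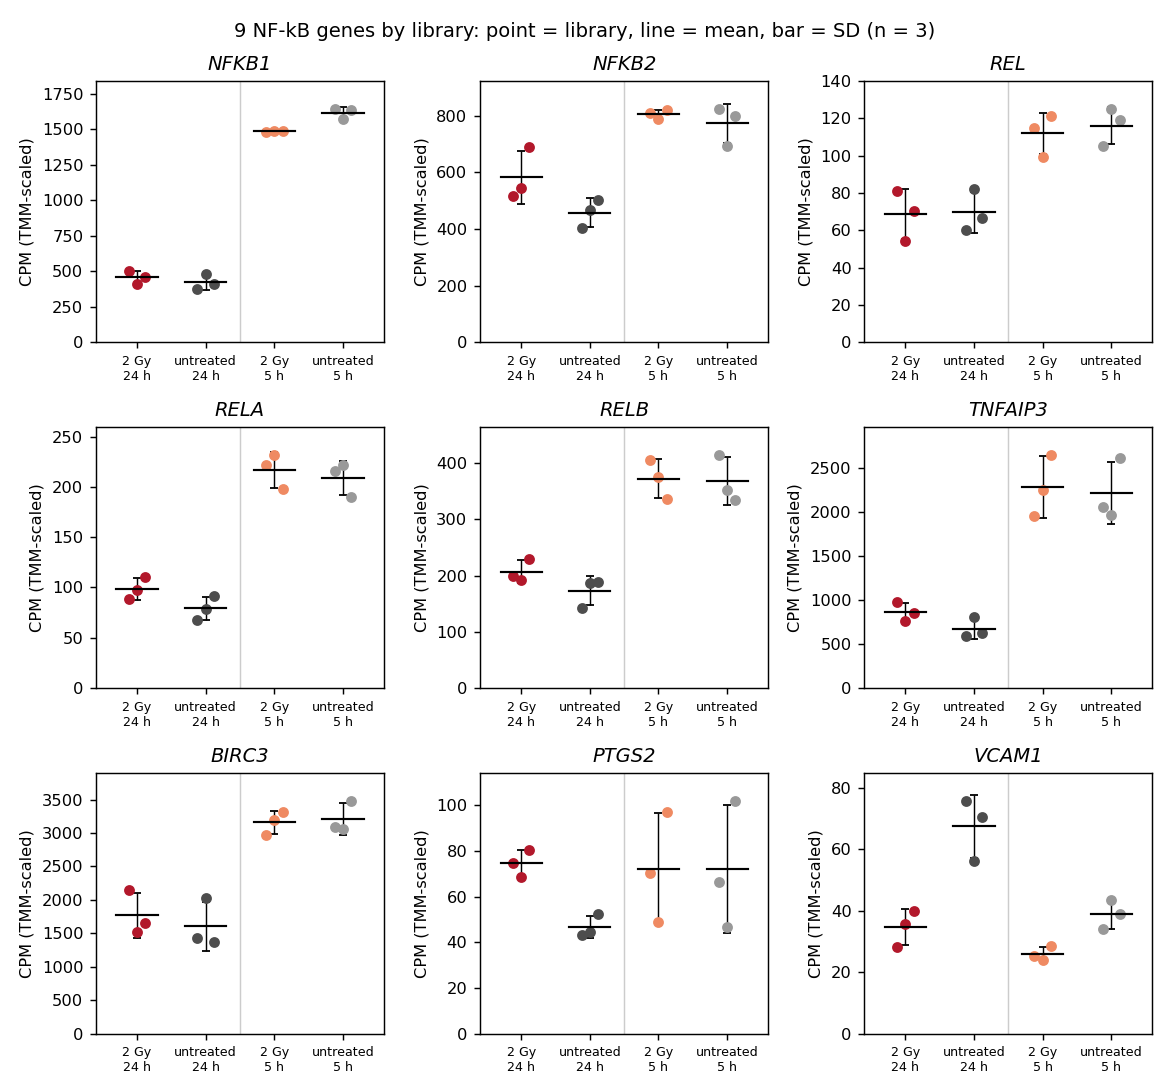
Levels of the 9 genes in CPM (linear axis from 0) in the 12 libraries, with a panel for each gene and the groups from left to right: 2 Gy at 24 h, untreated at 24 h, 2 Gy at 5 h and untreated at 5 h. Points are libraries, lines are means and bars are SD (n = 3). The NFKB1, RELA, RELB and TNFAIP3 points at 24 h all lie below those at 5 h, while PTGS2 and VCAM1 differ between treatments at 24 h.

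The first comparison set irradiated against untreated cells at 24 h. PTGS2 was higher and VCAM1 was lower after irradiation, and the other 7 genes did not pass the test. By edgeR's quasi-likelihood test with an adjusted p below 0.05, 2 of the 9 genes were called, against 6.73% of the 14373 genes tested. At an unadjusted p below 0.05 there were 4 higher and 1 lower, against 21.5% of the genes tested. The median log2 fold change of the 9 genes was 0.25, and that of all genes tested was 0.013.

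Among the subunits, NFKB2 (ENSLAFG00000006805, scaffold 10, 15941105 to 15947396, minus strand), which encodes the p100 precursor of p52, had 515, 544 and 689 CPM in irradiated libraries at 24 h, against 403, 467 and 504 CPM in untreated libraries. The lowest irradiated library lay just above the highest untreated library. The log2 fold change was 0.34 ± 0.14 (SE, edgeR adjusted p = 0.21). RELB (ENSLAFG00000008071, scaffold 4, 4063395 to 4107703, plus strand), the partner of p52, had 199, 192 and 230 CPM in irradiated libraries, against 143, 186 and 189 CPM in untreated libraries. These groups did not overlap either, by a margin smaller than the spread within each (log2 fold change 0.25 ± 0.12, edgeR adjusted p = 0.30). Over all genes tested, groups did not overlap in 26.2%, and among the 9 genes in 4 (NFKB2, RELB and PTGS2 higher, VCAM1 lower).

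RELA (ENSLAFG00000021967, scaffold 71, 3828337 to 3836035, plus strand), the transactivating p65 subunit, had 88.5, 97.4 and 110 CPM in irradiated libraries at 24 h, against 67.8, 78.3 and 91.1 CPM in untreated libraries. One irradiated library lay within the untreated range (log2 fold change 0.31 ± 0.13, edgeR adjusted p = 0.22). NFKB1 (ENSLAFG00000009344, scaffold 14, 9536412 to 9642066, plus strand), the p105 precursor of p50, had 504, 413 and 457 CPM in irradiated libraries, against 373, 482 and 407 CPM in untreated libraries, and the groups overlapped. Its log2 fold change was 0.11 ± 0.12 (edgeR adjusted p = 0.65). REL (ENSLAFG00000013507, scaffold 52, 1318981 to 1343618, minus strand), the lymphoid c-Rel subunit, had 80.9, 54.3 and 70.2 CPM in irradiated libraries, against 60.2, 81.9 and 66.8 CPM in untreated libraries. The lowest REL value was in an irradiated library and the highest in an untreated one (log2 fold change -0.032 ± 0.17, edgeR adjusted p = 0.93).

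Of the inhibitors, TNFAIP3 (ENSLAFG00000011428, scaffold 0, 21763823 to 21775430, minus strand) had 973, 761 and 852 CPM in irradiated libraries at 24 h, against 584, 805 and 618 CPM in untreated libraries. Only untreated replicate 2 reached the irradiated range (log2 fold change 0.36 ± 0.15, edgeR adjusted p = 0.22). BIRC3 (ENSLAFG00000006047, scaffold 35, 12892279 to 12902952, plus strand) had 2154, 1514 and 1652 CPM in irradiated libraries, against 1429, 2029 and 1364 CPM in untreated libraries. Each group held 1 library well above its other 2 (log2 fold change 0.13 ± 0.19, edgeR adjusted p = 0.73). The 24 h libraries that stood high in BIRC3, irradiated replicate 1 and untreated replicate 2, were also the highest of their group in NFKB1, REL and TNFAIP3.

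PTGS2 (ENSLAFG00000005660, scaffold 16, 13366129 to 13372990, plus strand) encodes cyclooxygenase-2, the inducible enzyme that commits arachidonic acid to prostaglandin synthesis. It had 74.7, 68.6 and 80.3 CPM in irradiated libraries at 24 h, against 43.3, 44.5 and 52.4 CPM in untreated libraries. All irradiated libraries lay above all untreated libraries, and the gap between the groups was wider than the range within either. The level was 1.58 times that of untreated cells (log2 fold change 0.66 ± 0.10, edgeR adjusted p = 0.014). The call was lost without irradiated replicate 2 or 3 or untreated replicate 1 (adjusted p up to 0.061), with log2 fold changes between 0.60 and 0.75 over all 6 such fits, and it was lost with all 12 libraries in 1 edgeR fit (adjusted p = 0.13). Of the 7 platelet markers with a row 3 were called higher and 0 lower, against 6.73% of all genes tested. Their summed level was 108 to 136 CPM in irradiated libraries and 51.1 to 66.5 CPM in untreated libraries at 24 h. The 7 monocyte and macrophage markers summed to 7896 to 9129 CPM in irradiated libraries and to 5349 to 6407 CPM in untreated libraries, with 2 called higher and 0 lower. For the 10 neutrophil markers the sums were 481 to 522 CPM in irradiated libraries and 252 to 339 CPM in untreated libraries. Again 2 were called higher and 0 lower, with 5 higher and 2 lower at an unadjusted p below 0.05, against 21.5% of all genes. None of these markers was at 0 in any group, and their part in the PTGS2 result was not tested.

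VCAM1 (ENSLAFG00000003191, scaffold 11, 44538167 to 44557141, plus strand) encodes an adhesion receptor for the integrin VLA-4 that is best known from activated endothelium and is also made by some macrophages and dendritic cells. It had 28.3, 35.8 and 39.8 CPM in irradiated libraries at 24 h, against 75.8, 56.1 and 70.4 CPM in untreated libraries. Every irradiated library lay below every untreated library. Irradiated cells held 0.508 times the level of untreated cells (log2 fold change -0.98 ± 0.17, edgeR adjusted p = 0.018). Its call was lost without irradiated replicate 2 or untreated replicate 1 or 3 (adjusted p up to 0.074), with log2 fold changes between -1.09 and -0.86 over the 6 fits. In irradiated libraries the 13 endothelial and stromal markers with a row summed to 55.9 to 72.2 CPM. In untreated libraries they summed to 68.0 to 75.5 CPM. Of 12 tested 1 was called higher and 2 lower, and 9 log2 fold changes were positive and 3 negative (median 0.50). Of the 7 dendritic cell markers 0 were called higher and 2 lower, with 3 positive and 4 negative log2 fold changes (median -0.0738). They summed to 268 to 309 CPM in irradiated libraries and 305 to 374 CPM in untreated libraries. The 7 monocyte and macrophage markers went the other way from VCAM1, with 2 called higher and 0 lower (6 positive, 1 negative, median 0.66). Their sums were 7896 to 9129 CPM in irradiated libraries and 5349 to 6407 CPM in untreated libraries. B cell markers moved the most of the lists, with 0 of 12 called higher and 10 lower and sums of 272 to 700 CPM in irradiated libraries and 826 to 1352 CPM in untreated libraries. NK and cytotoxic markers summed to 150 to 221 CPM in irradiated libraries and to 391 to 448 CPM in untreated libraries, with 0 of 7 called higher and 4 lower. The share of all genes called at 24 h was 6.73%. No marker of these lists was at 0 in any group, and their part in the VCAM1 result was not tested.

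**Figure D2:**
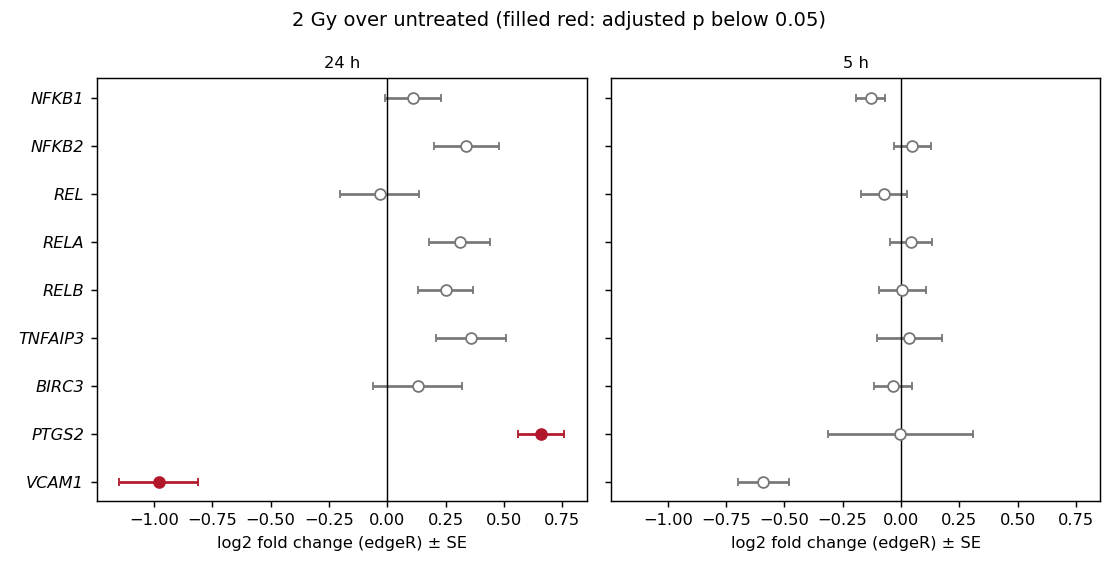
log2 fold change of 2 Gy over untreated cells with SE (edgeR) for the 9 genes, at 24 h on the left and at 5 h on the right. Filled red points have an adjusted p below 0.05, which at 24 h holds for PTGS2 (0.66) and VCAM1 (-0.98) and at 5 h for none, VCAM1 lying at an adjusted p of 0.053.

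At 5 h the same comparison gave no call among the 9 genes, and 8 of the 9 log2 fold changes were smaller than 0.15 in size. The exception was VCAM1, whose irradiated libraries again all lay below the untreated ones. By edgeR 0 of the 9 genes passed, against 1.60% of the 12969 genes tested, with 1 lower and 0 higher at an unadjusted p below 0.05, against 12.9%, and DESeq2 called 1 lower, against 3.42% of the genes tested. Replicate numbers were taken to pair the libraries at 5 h, from correlations in the data and not from the design. With the replicate number as a block edgeR called 2 of the 9 genes lower, against 20.5% of the genes tested. Over all genes tested at 5 h, groups did not overlap in 18.7%, and among the 9 genes in 2.

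VCAM1 had 25.4, 23.9 and 28.5 CPM in irradiated libraries at 5 h, against 34.0, 43.5 and 38.9 CPM in untreated libraries. The groups did not overlap. The log2 fold change was -0.59 ± 0.11 with an edgeR adjusted p of 0.053, which was 4.5e-05 with the replicate block, 0.00095 in DESeq2 and 0.11 with all 12 libraries in 1 fit. Without 1 library it lay between 0.049 (without irradiated replicate 3) and 0.24 (without irradiated replicate 1). B cell markers also ran lower there, with 0 of 13 called higher and 1 lower (11 lower with the block) and sums of 378 to 615 CPM in irradiated libraries and 564 to 760 CPM in untreated libraries. The dendritic cell markers summed to 154 to 174 CPM in irradiated libraries and to 199 to 218 CPM in untreated libraries, with 0 of 6 tested called higher and 1 lower (5 lower with the block). Over all genes tested at 5 h, 1.60% were called, and 20.5% with the block. The part of these markers in the VCAM1 values was not tested.

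NFKB1 had 1484, 1492 and 1486 CPM in irradiated libraries at 5 h, against 1644, 1577 and 1636 CPM in untreated libraries. The irradiated libraries were nearly equal and lay below all untreated ones. The difference was small, at -8.91% (log2 fold change -0.13 ± 0.062, edgeR adjusted p = 0.42, 0.015 with the replicate block). The other subunits overlapped between the groups: NFKB2 lay between 789 and 819 CPM in irradiated libraries and between 695 and 824 CPM in untreated libraries, and RELA between 198 and 232 CPM in irradiated libraries and between 190 and 222 CPM in untreated libraries. RELB lay between 336 and 405 CPM in irradiated libraries and between 334 and 415 CPM in untreated libraries, and REL between 99.5 and 121 CPM in irradiated libraries and between 105 and 125 CPM in untreated libraries. Their log2 fold changes ran between -0.073 for REL and 0.0483 for NFKB2, with edgeR adjusted p of at least 0.82.

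TNFAIP3 had 1950, 2247 and 2645 CPM in irradiated libraries at 5 h, against 2048, 1967 and 2609 CPM in untreated libraries (log2 fold change 0.0356 ± 0.14, edgeR adjusted p = 0.95). BIRC3 had 2976, 3200 and 3310 CPM in irradiated libraries, against 3097, 3058 and 3485 CPM in untreated libraries (log2 fold change -0.0348 ± 0.083, edgeR adjusted p = 0.91). For both inhibitors replicate 3 was the highest of its group in irradiated and in untreated cells. PTGS2 had 70.5, 48.9 and 97.1 CPM in irradiated libraries, against 66.6, 46.9 and 102 CPM in untreated libraries. The spread between numbers was large and shared by both groups, with replicate 2 lowest and replicate 3 highest in each, while libraries of the same number lay close together. Its log2 fold change was -0.00221 ± 0.31 (edgeR adjusted p = 1.0, 0.94 with the replicate block). Platelet markers spread likewise at 5 h, over 85.2 to 161 CPM in irradiated libraries and 65.4 to 140 CPM in untreated libraries.

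Whether irradiation acted differently at 24 h than at 5 h was tested as an interaction over all 12 libraries. By edgeR 0 of the 9 genes passed, against 0.882% of 15200 genes tested, 0 had an unadjusted p below 0.05, and DESeq2 called 0. PTGS2 had a difference of 0.67 ± 0.37 on the log2 scale (edgeR adjusted p = 0.63), with effects of 0.66 at 24 h and -0.00221 at 5 h. Without 1 library the difference ranged from 0.32 (without untreated replicate 3 at 5 h) to 0.94 (without irradiated replicate 3 at 5 h). With the replicate block within each time its edgeR adjusted p was 0.022, where 1 of the 9 genes and 1.76% of all genes were called. The numbers were taken to pair the libraries at 5 h only. For VCAM1 the difference was -0.38 ± 0.21 (edgeR adjusted p = 0.62), with effects of -0.98 at 24 h and -0.59 at 5 h. The 7 other genes had differences between 0.0373 for REL and 0.32 for TNFAIP3. PTGS2 thus passed at 24 h and not at 5 h, and a difference between the 2 effects was not shown.

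The next comparison set 24 h against 5 h within each treatment. All 5 subunit genes and both inhibitors were lower at 24 h, in irradiated and in untreated cells alike, while VCAM1 was higher at 24 h in both. PTGS2 did not pass in either. In irradiated cells 8 of the 9 genes were called (7 lower, 1 higher), against 65.9% of 14028 genes tested and 30.6% called lower. In untreated cells 8 of the 9 were called (7 lower, 1 higher), against 63.1% of 13445 genes tested and 30.5% called lower. The median log2 fold change of the 9 genes was -0.78 in irradiated cells and -0.96 in untreated cells, and that of all genes tested was 0.103 in irradiated cells and 0.108 in untreated cells. Upper-quartile scaling gave a median over all genes of 0.341 in irradiated cells and 0.347 in untreated cells. With it 67.0% of the calls in irradiated cells were higher, against 53.6% with TMM scaling, and 66.4% of those in untreated cells, against 51.6%. No gene of the 9 that was called changed direction with the scaling.

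NFKB1 fell the furthest. Its libraries lay at 413 to 504 CPM at 24 h, against 1484 to 1492 CPM at 5 h in irradiated cells, and at 373 to 482 CPM at 24 h, against 1577 to 1644 CPM at 5 h in untreated cells. The times stood far apart, with every 24 h library far below every 5 h library. log2 fold changes were -1.64 ± 0.12 in irradiated cells (edgeR adjusted p = 1.1e-05) and -1.90 ± 0.11 in untreated cells (edgeR adjusted p = 4.6e-06). RELA fell by 1.09 ± 0.11 in irradiated cells (edgeR adjusted p = 7.5e-05) and by 1.37 ± 0.12 in untreated cells (2.4e-05) on the log2 scale, with no overlap between the times. RELB fell by 0.79 ± 0.12 in irradiated cells (edgeR adjusted p = 0.00046) and by 1.05 ± 0.12 in untreated cells (0.00014).

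NFKB2 and REL fell the least of the subunits. REL fell by 0.65 ± 0.15 on the log2 scale in irradiated cells (edgeR adjusted p = 0.0051) and by 0.70 ± 0.12 in untreated cells (0.0011). NFKB2 fell by 0.41 ± 0.13 in irradiated cells (edgeR adjusted p = 0.019) and by 0.72 ± 0.11 in untreated cells (0.00054). In irradiated cells its call was lost with upper-quartile scaling (adjusted p = 0.22) and with a filter at a mean of 1 CPM (0.053), and its log2 fold change was -0.63 without replicate 3 at 24 h. TNFAIP3 fell by 1.35 ± 0.15 in irradiated cells (edgeR adjusted p = 0.00012) and by 1.68 ± 0.16 in untreated cells (4.2e-05), and BIRC3 by 0.78 ± 0.15 in irradiated cells (0.0023) and by 0.96 ± 0.16 in untreated cells (0.00095). With TMM scaling, the highest 24 h library of each of these 7 genes lay below the lowest 5 h library, in both treatments. Without the TMM factors, REL overlapped between the times in both treatments and NFKB2 in irradiated cells. With TMM scaling, groups did not overlap in 70.6% of all genes tested in irradiated cells and in 68.6% in untreated cells.

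VCAM1 was higher at 24 h, by 0.47 ± 0.14 on the log2 scale in irradiated cells (edgeR adjusted p = 0.015) and by 0.84 ± 0.15 in untreated cells (0.0013). In irradiated cells the 24 h and 5 h libraries overlapped, replicate 1 at 24 h falling within the 5 h range. That call was lost without irradiated replicate 2 or 3 at 24 h or replicate 1 or 2 at 5 h (adjusted p up to 0.11), and the value was 0.28 without replicate 3 at 24 h. PTGS2 had a log2 fold change of 0.10 ± 0.21 in irradiated cells (edgeR adjusted p = 0.68) and of -0.58 ± 0.24 in untreated cells (0.060). In untreated cells it passed in DESeq2 (0.013), with median-of-ratios scaling (0.042), with no filter (0.036), without replicate 3 at 24 h and without replicate 2 at 5 h (0.0069 at the least). It did not pass with upper-quartile scaling (-0.34, adjusted p = 0.23), with all 12 libraries in 1 fit (0.058) or with a filter at a mean of 1 CPM (0.080). Without 1 library the value ranged from -0.82 (without replicate 2 at 5 h) to -0.27 (without replicate 3 at 5 h, adjusted p = 0.17). In irradiated cells, B cell markers had the lowest median change between the times of the marker lists (-1.95, with 1 of 13 called higher and 11 lower), with sums of 272 to 700 CPM at 24 h, against 378 to 615 CPM at 5 h. In untreated cells the B cell median was 0.36 (5 of 13 called higher, 0 lower), with sums of 826 to 1352 CPM at 24 h, against 564 to 760 CPM at 5 h. Neutrophil markers, the marker list with the lowest median change between the times in untreated cells, summed to 481 to 522 CPM at 24 h, against 1270 to 1521 CPM at 5 h in irradiated cells (0 of 10 called higher, 5 lower). In untreated cells they summed to 252 to 339 CPM at 24 h, against 1114 to 1364 CPM at 5 h (0 of 9 called higher, 6 lower). Over all 14028 genes tested in irradiated cells, 4293 (30.6%) were called lower and 4956 higher. Over all 13445 in untreated cells, 4107 (30.5%) were called lower and 4383 higher. The part of these markers in the changes with time was not tested.

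**Figure D3:**
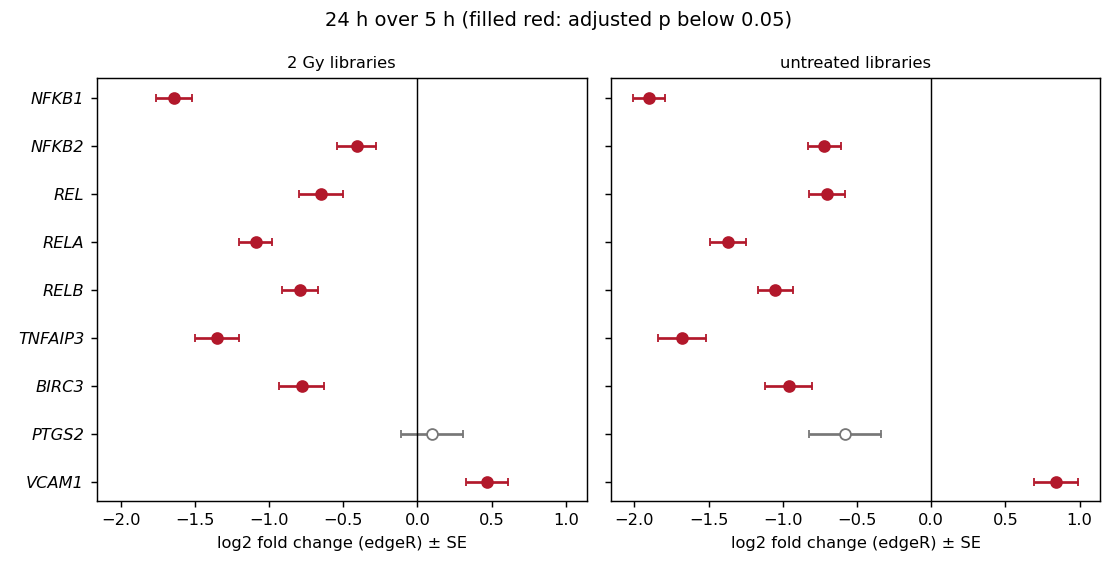
log2 fold change of 24 h over 5 h with SE (edgeR) for the 9 genes, in 2 Gy libraries on the left and in untreated libraries on the right. Filled red points have an adjusted p below 0.05: 7 genes lie left of 0 in both panels, VCAM1 lies right of 0 (0.47 and 0.84), and PTGS2 is open in both.

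Ratios within a library do not depend on its scaling. The NFKB2 to NFKB1 ratio per kilobase was 1.14, 1.47 and 1.69 in irradiated libraries and 1.21, 1.08 and 1.38 in untreated libraries at 24 h. At 5 h it was 0.610, 0.591 and 0.616 in irradiated libraries and 0.560, 0.493 and 0.547 in untreated libraries. NFKB2 thus exceeded NFKB1 in all 6 libraries at 24 h and fell short of it in all 6 at 5 h, and irradiated and untreated libraries overlapped at 24 h but not at 5 h. The RELB to RELA ratio averaged 2.15 ± 0.144 in irradiated cells and 2.24 ± 0.172 in untreated cells at 24 h, and 1.75 ± 0.103 in irradiated cells and 1.80 ± 0.168 in untreated cells at 5 h (SD, n = 3 each), so it was less strongly shifted. TNFAIP3 stood at 0.345 to 0.394 of BIRC3 in irradiated libraries and 0.303 to 0.346 in untreated libraries at 24 h, against 0.500 to 0.610 in irradiated and 0.491 to 0.572 in untreated libraries at 5 h. BIRC3 exceeded its paralogue BIRC2 by 7.73 ± 0.938 times in irradiated cells and 8.42 ± 0.741 times in untreated cells at 24 h. PTGS1, the constitutive cyclooxygenase, averaged under 1 CPM in all 4 groups, and the PTGS2 to PTGS1 ratio per kilobase was between 63.5 and 157 in irradiated libraries and between 60.5 and 88.1 in untreated libraries at 24 h.

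**Figure D4:**
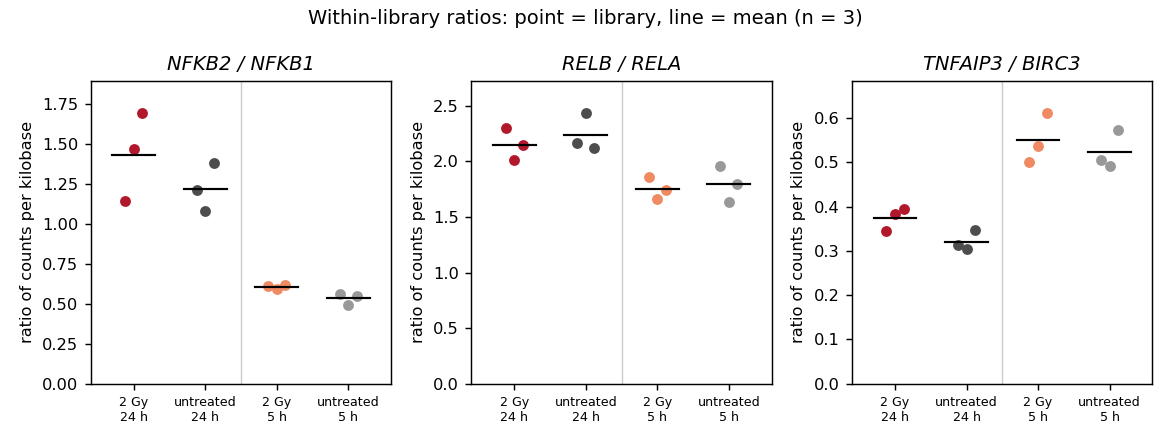
Ratios of counts per kilobase within each library (linear axes from 0) for NFKB2 to NFKB1, RELB to RELA and TNFAIP3 to BIRC3. Points are libraries and lines are means (n = 3), with the 2 Gy group left of the untreated group at each time. The NFKB2 to NFKB1 ratio is above 1 in all 6 libraries at 24 h and below 0.62 in all 6 at 5 h.

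Around these 9 genes, other genes of the pathway were counted in the same way, against 6.73% of all genes called by edgeR at 24 h, 21.5% at an unadjusted p below 0.05 and 11.9% by DESeq2. At 24 h, of 18 other IkB proteins and feedback inhibitors edgeR called 0 in either direction (3 higher and 0 lower at an unadjusted p below 0.05, and 1 higher and 0 lower by DESeq2). Their median log2 fold change was 0.17, against 0.013 over all genes tested. Of 27 genes of the IkB kinase complex and its upstream adaptors 0 were called higher and 3 lower (2 higher and 4 lower at an unadjusted p below 0.05, and 2 higher and 3 lower by DESeq2). PRKCQ, a protein kinase C of T cells, had 28.7, 30.2 and 32.5 CPM in irradiated libraries, against 55.3, 47.1 and 48.3 CPM in untreated libraries, with no overlap (log2 fold change -0.73 ± 0.11, edgeR adjusted p = 0.010). TRAF5, a TNF receptor adaptor, had a log2 fold change of -0.84 ± 0.18 (edgeR adjusted p = 0.036). TRAF5 lost its call in 5 of 6 fits that left out 1 library (adjusted p up to 0.10) and PRKCQ without irradiated replicate 2 (0.054). Both genes act in lymphocytes. T cell markers summed to 355 to 481 CPM in irradiated libraries and to 589 to 644 CPM in untreated libraries. Of 11 tested edgeR called 0 higher and 1 lower, against 6.73% of all genes. At an unadjusted p below 0.05 there were 0 higher and 8 lower, against 21.5%, and by DESeq2 0 higher and 4 lower, against 11.9%. The part of lymphocyte numbers was not tested.

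Of 8 genes linked to signalling between DNA damage and NF-kB, 0 were called higher and 1 lower at 24 h, also at an unadjusted p below 0.05 and by DESeq2. PARP1, a DNA break sensor, had 85.2, 92.1 and 87.4 CPM in irradiated libraries, against 149, 140 and 141 CPM in untreated libraries (log2 fold change -0.71 ± 0.088, edgeR adjusted p = 0.0059), with wide separation of the groups. Of 30 further NF-kB responsive targets tested, 2 were called higher and 1 lower, against 6.73% of all genes (9 higher and 1 lower at an unadjusted p below 0.05, and 4 higher and 1 lower by DESeq2). A positive log2 fold change was found in 27 of the 30, and the median was 0.46, against 0.013 over all genes tested. Monocyte and macrophage markers had a median of 0.66 (6 positive, 1 negative) and neutrophil markers one of 0.91 (8 positive, 2 negative). B cell markers had a median of -2.84 (1 positive, 11 negative). The part of these markers in the values of the targets was not tested. IL6, the inflammatory cytokine, had 6.14, 11.2 and 13.4 CPM in irradiated libraries at 24 h, against 3.14, 1.96 and 2.55 CPM in untreated libraries (log2 fold change 1.99 ± 0.32, edgeR adjusted p = 0.015, lost without irradiated replicate 2 at 0.065). BCL2L1, the gene of the survival factor BCL-XL, which other pathways control as well, had a log2 fold change of 2.13 ± 0.11 (0.00024), and TNFAIP8 one of -0.78 ± 0.15 (0.026, lost in 4 of 6 fits without 1 library). At 5 h, 2 of 29 targets were called higher and 0 lower, against 1.60% of all genes, again IL6 (2.23 ± 0.40, edgeR adjusted p = 0.037, up to 0.14 without 1 library) and BCL2L1 (0.97 ± 0.094, 0.0022), and DESeq2 called 3 higher and 0 lower. With the replicate block 8 were higher and 9 lower, against 20.5% of all genes. At an unadjusted p below 0.05 there were 3 higher and 1 lower, against 12.9% of all genes, and DESeq2 called 3.42% of all genes. The same shares over all genes hold for the other lists at 5 h. At 5 h the feedback inhibitors had 0 of 18 called (4 higher and 1 lower with the block, 0 by DESeq2, 1 higher and 1 lower at an unadjusted p below 0.05) and the kinase complex list 0 of 27 (1 higher and 5 lower with the block, 0 by DESeq2, 1 higher and 2 lower at an unadjusted p below 0.05). The DNA damage list also had 0 of 8 called at 5 h (1 lower with the block, 0 by DESeq2, 1 lower at an unadjusted p below 0.05).

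The prostanoid list of enzymes and receptors also held the leukotriene genes ALOX5, ALOX5AP and LTA4H. Of its 16 genes tested beside PTGS2, 1 was called higher at 24 h and 0 lower, near the 6.73% called over all genes (1 higher and 1 lower at an unadjusted p below 0.05 and by DESeq2). The called gene was PTGER2, a receptor for prostaglandin E2, with 41.2, 39.5 and 51.9 CPM in irradiated libraries, against 20.6, 30.2 and 30.1 CPM in untreated libraries (log2 fold change 0.70 ± 0.16, edgeR adjusted p = 0.049). Its groups did not overlap, but the call was lost in all 6 fits without 1 library (adjusted p 0.062 to 0.16) and with no filter (0.067). Beside VCAM1, 1 of 10 adhesion partners was called lower at 24 h and 0 higher, against 6.73% of all genes (1 higher and 1 lower by DESeq2). The integrin chain ITGB7 had 24.8, 39.3 and 28.8 CPM in irradiated libraries, against 70.0, 69.2 and 58.5 CPM in untreated libraries (log2 fold change -1.10 ± 0.18, edgeR adjusted p = 0.017, lost without irradiated replicate 3 or untreated replicate 1 at up to 0.057). It was also lower at 5 h, as 1 of 9, against 1.60% of all genes (-0.64 ± 0.065, edgeR adjusted p = 0.0024, 0.054 with all 12 libraries in 1 fit), where 5 were lower with the replicate block, against 20.5% of all genes. ITGA4, the VLA-4 chain that binds VCAM1, did not pass at 24 h (0.0658 ± 0.42, edgeR adjusted p = 0.94) or at 5 h (-0.15 ± 0.21, 0.83, 0.016 with the replicate block). No gene of the 14 tested from the prostanoid list was called at 5 h by edgeR or DESeq2, and 3 were lower with the block and 0 at an unadjusted p below 0.05.

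Between the times, most of these lists held more genes called lower than higher. Of the other IkB proteins and feedback inhibitors 9 of 18 were lower and 2 higher in irradiated cells, and 11 lower and 1 higher in untreated cells. Of the kinase complex list 16 of 27 were lower and 2 higher in irradiated cells, and 16 lower and 3 higher in untreated cells. The responsive targets had 14 of 30 lower and 6 higher in irradiated cells, and 19 lower and 5 higher in untreated cells, and the prostanoid list 10 of 16 lower and 1 higher in irradiated cells and 10 of 15 lower and 1 higher in untreated cells. The DNA damage list had 2 of 8 lower and 2 higher in irradiated cells and 2 lower and 4 higher in untreated cells, and the adhesion partners 2 of 10 lower and 4 higher in irradiated cells and 3 of 9 lower and 2 higher in untreated cells. Of the 14028 genes tested in irradiated cells, 4293 (30.6%) were called lower and 4956 higher. In untreated cells 4107 (30.5%) of 13445 were called lower and 4383 higher. Several single genes, chosen after their values were seen, fell further than NFKB1. TNIP1, the A20-binding inhibitor ABIN-1, averaged 822 ± 92.3 CPM at 24 h, against 3230 ± 69.2 CPM at 5 h in irradiated cells (log2 fold change -1.92 ± 0.13), and 574 ± 126 CPM at 24 h, against 3174 ± 154 CPM at 5 h in untreated cells (-2.43 ± 0.16). PTGES, the prostaglandin E synthase that acts after PTGS2, averaged 104 ± 20.4 CPM at 24 h, against 1158 ± 230 CPM at 5 h in irradiated cells (-3.42 ± 0.20), and 72.5 ± 22.7 CPM at 24 h, against 1162 ± 224 CPM at 5 h in untreated cells (-3.96 ± 0.24; SD of CPM and SE of log2 fold changes, n = 3 each). The prostacyclin receptor PTGIR fell by 3.91 ± 0.21 in irradiated cells and by 4.33 ± 0.21 in untreated cells, while PTGS2 itself did not pass.

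The genes most like NFKB1, PTGS2 and VCAM1 over the 12 libraries were found by the root mean square difference of log2 CPM, each gene centred on its own mean, among 10396 genes with a symbol and a mean of at least 1 CPM. The same measure is shaped by the groups and by the depth that the libraries share, and it has no test. Nearest to NFKB1 were PFN1, which encodes the actin-binding protein profilin (0.059), PHC2 (0.087) and TPM4, a tropomyosin (0.103), where the median gene differed from NFKB1 by 0.929. Nearest to PTGS2 were TUBB1, the platelet tubulin (0.167), SDCBP2 (0.174) and MRAS (0.200), with a median of 0.557. Like PTGS2, all 3 had 5 h libraries with replicate 2 low and replicate 3 high in both treatments. Nearest to VCAM1 were FIGNL1 (0.158), the calcineurin subunit PPP3CC (0.160) and the granzyme B inhibitor SERPINB9 (0.163), with a median of 0.652.

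**Figure D5:**
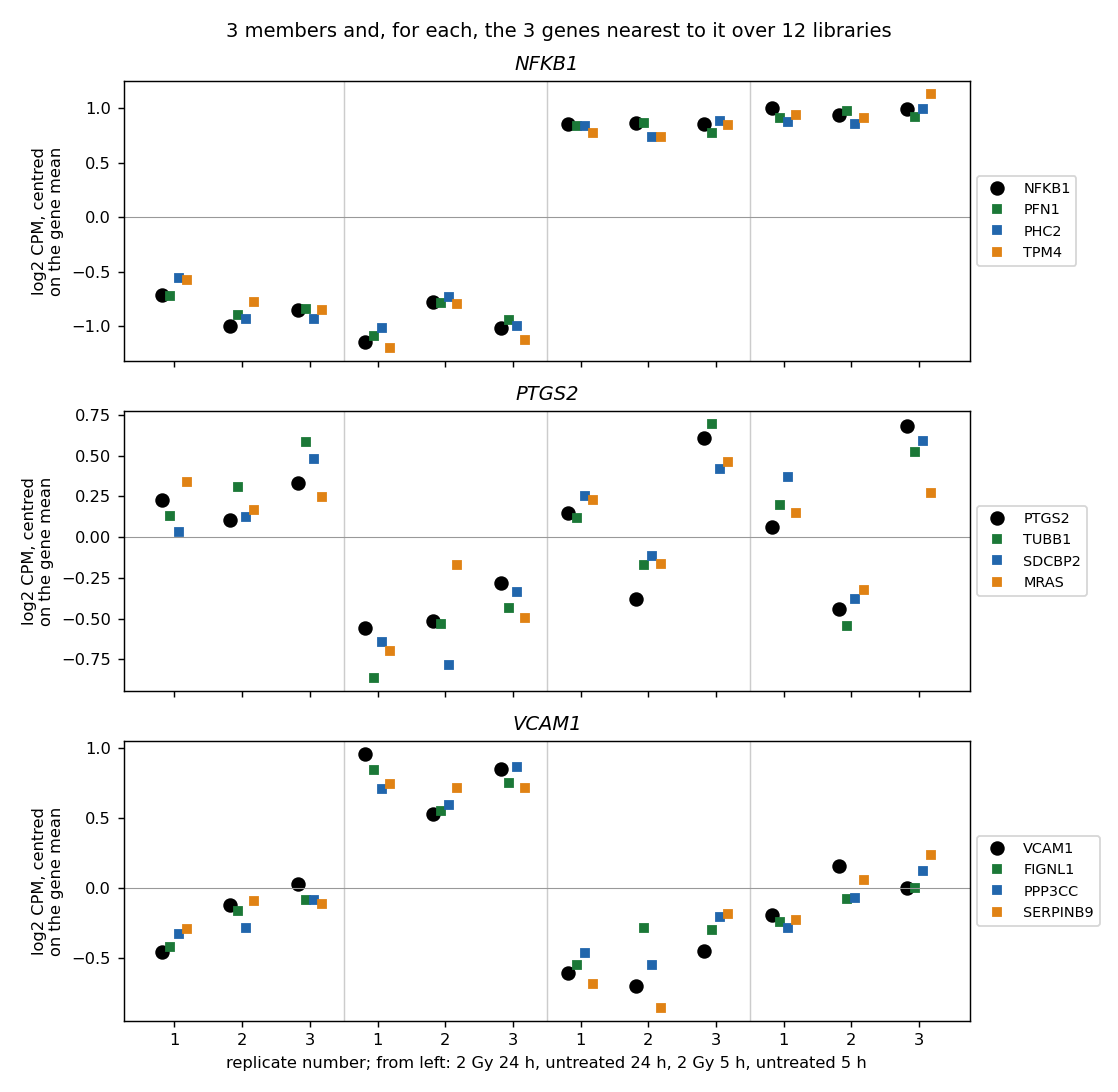
log2 CPM centred on each gene's mean over 12 libraries for NFKB1, PTGS2 and VCAM1 (black circles) and the 3 genes nearest to each (squares), by library, with the groups in the order 2 Gy at 24 h, untreated at 24 h, 2 Gy at 5 h, untreated at 5 h. NFKB1 and its neighbours lie below 0 in all 24 h libraries and above 0 in all 5 h libraries, and VCAM1 and its neighbours are highest in untreated cells at 24 h.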

How the data were processed

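Total RNA of blood cells was sequenced after ribosomal RNA depletion with a stranded Illumina kit, per the labels' protocols. The authors deposited 1 table per time, each with raw read counts per Ensembl gene for 6 libraries, per the file headers. They also deposited FPKM values, used here only for the order of levels, and the exon length of each gene model, which is a multiple of 3 in 8 of the 9 genes and in 86.4% of protein-coding rows. Coordinates are as printed in the tables for the African elephant assembly of July 2009 named in the file headers. Aligner, counting program and strand setting: not given in the sources used here. None of the 9 genes overlaps another row.

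The tests were run on the counts in R 4.3.3 with edgeR 4.0.16: TMM scaling, filterByExpr, quasi-likelihood F test, Benjamini-Hochberg adjustment over all genes tested and a threshold of 0.05. Each comparison used its 6 libraries and the interaction all 12. Standard errors come from the F statistic. The code was tested on simulated data. Alternatives were DESeq2 1.42.0, 2 other scalings, 2 other filters, a replicate block, all 12 libraries in 1 fit, and leaving out each library. For the nearest genes a prior count of 2 was used. Genes of the lists that edgeR called after irradiation are named, up to 4 per list by p, except 1 that is not reported here. The 10 genes and all lists were chosen with earlier results of these data known.

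Replicate numbers are in the labels. At 5 h, deviations from the group means of same-numbered irradiated and untreated libraries correlated at 0.503, 0.464 and 0.681 over 11803 genes with a mean of at least 1 CPM (0.141, 0.0955 and 0.343 over all 15200 genes passing the filter), and the numbers were taken to pair them there. The choice of the 11803 genes was made after the second set of values was seen. No libraries agreed within sampling noise (chi-square per degree of freedom 17.4 to 88.8 within groups).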

Additional observations from a re-analysis of the deposited data

Results flagged for a closer look

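For BCL2L1, which encodes BCL-XL, the irradiation effect differed between the times by an interaction test over all 12 libraries. The difference in log2 fold change was 1.16 ± 0.16 (edgeR adjusted p = 0.0039), with effects of 2.13 at 24 h and 0.97 at 5 h. It had 57.2, 46.6 and 52.2 CPM in irradiated libraries, against 10.6, 12.9 and 11.9 CPM in untreated libraries at 24 h. At 5 h it had 210, 181 and 166 CPM in irradiated libraries, against 98.3, 93.8 and 90.1 CPM in untreated libraries. All irradiated libraries lay above all untreated ones at both times. The call held without each of the 12 libraries in turn (adjusted p up to 0.020).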

How the results depend on the processing

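Called genes numbered 968 at 24 h, against 1715 in DESeq2, 1670 with all 12 libraries in 1 fit and 293 to 1061 without 1 library. At 5 h they numbered 207, against 444 in DESeq2, 2655 with the replicate block and 86 to 191 without 1 library, and for the interaction 134, against 362 in DESeq2, 268 with the replicate block and 76 to 168 without 1 library. Of the 9 genes, the number called higher at 24 h was 1, against 0 with all 12 libraries and 0 to 1 without 1 library, and the number called lower 1, against 0 to 1 without 1 library. At 5 h the number called lower was 0, against 1 in DESeq2, 2 with the block and 0 to 1 without 1 library, and in the interaction the number called higher was 0, against 1 with the block. In irradiated cells, 24 h against 5 h, the number called higher was 1, against 0 to 1 without 1 library.

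Some log2 fold changes that were not called turned round: REL at 24 h was 0.00420 with the 1 CPM filter, RELB at 5 h -0.0215 with upper-quartile scaling, and PTGS2 at 5 h 0.00741 with the block and 0.00599 with all 12 libraries. Without 1 library the ranges were -0.18 to 0.10 for REL and -0.0398 to 0.34 for BIRC3 at 24 h. At 5 h they were -0.0178 to 0.0894 for NFKB2, -0.15 to 0.00529 for REL, -0.0269 to 0.0962 for RELA, -0.0624 to 0.0946 for RELB, -0.0960 to 0.17 for TNFAIP3, -0.0797 to 0.0231 for BIRC3 and -0.29 to 0.34 for PTGS2. In the interaction they were -0.12 to 0.18 for REL and -0.0186 to 0.37 for BIRC3, and for PTGS2 in irradiated cells between the times -0.15 to 0.34. The cause was not tested for any of these.

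The share of calls that were higher at 5 h was 54.1% in DESeq2, against 70.0% in edgeR with TMM scaling and 71.8% in edgeR with median-of-ratios scaling. In the interaction it was 27.0% in edgeR with upper-quartile scaling, against 14.2% with TMM scaling. At 24 h, numbers did not pair the libraries (correlations -0.0861, -0.498 and 0.752), nor between the times. There irradiated replicates 1 and 2 correlated best with untreated replicates 2 and 1 (0.746 and 0.450) and only replicate 3 with its own number, a hint from the data and not from the design, and with the block by number 707 genes were called. Apart from the changes given here and in the report, the replicate block changed no call of the 9 genes except PTGS2 in untreated cells between the times (adjusted p = 0.031). The search of promoters for kappaB motifs was not run, since no promoter sequences were used here.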
